A study of Mus musculus with 6 samples.

Results

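Selectins and adhesion molecules of the immunoglobulin superfamily are the cell surface proteins with which cells catch hold of one another. The genes described here are 10 of the 14729 genes named by the read annotations. They comprise the selectin genes Selp and Sele, the selectin ligand gene Selplg and the immunoglobulin-family genes Ncam1, Vcam1, Icam1, L1cam, Alcam, Mcam and Bcam. The set was chosen by the read counts of these same libraries, summed per gene and compared between CD24+ and CD24- cells: it was assembled around Selp, which fell in CD24+ cells and whose product has CD24 among its known ligands, and around Ncam1, which rose. The change of these 2 genes between the groups is therefore given as a description, with no test, and of the other 8 members the 4 with enough reads were tested in a fit over all genes.

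Selectins are lectins that bind sialylated and fucosylated sugars carried on mucin-like proteins, and they slow leukocytes on the vessel wall. P-selectin, the product of Selp, is stored in granules of platelets and endothelial cells, and its ligands include PSGL-1 (the product of Selplg) and the glycosylphosphatidylinositol-anchored (GPI-anchored) CD24. Immunoglobulin-family members bind integrins (VCAM-1 and ICAM-1), their own kind on a neighbouring cell (NCAM, ALCAM and L1) or the matrix (BCAM), and several of them are made in membrane-spanning and GPI-anchored forms.

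Mvt1 is a mouse mammary carcinoma line of FVB/N origin, which had been stained for surface CD24 and separated by flow cytometry into CD24- and CD24+ cells. Messenger RNA was sequenced from 3 plates of each group, grown as adherent cells in the same serum-containing medium with no further treatment. Independent sorts are not described, so SDs and p-values measure the spread between plates, and differences tied to CD24 cannot be told apart from others that arose between these 2 sorted populations of a single line. The libraries held 9046025 to 25692147 mapped reads, of which 71.7% to 74.3% carried the annotation of a gene (6489372 to 19094182 reads), and CD24+ replicate 1 was the shallowest. Levels are given as CPM, counts per 1000000 gene reads after TMM scaling, and 3 reads corresponded to 0.157 to 0.472 CPM depending on the library. Over the 11113 genes with enough reads to be tested, 46.2% passed the threshold (adjusted p below 0.05 from edgeR's quasi-likelihood test), 23.9% as higher and 22.3% as lower in CD24+ cells, the groups did not overlap for 57.3%, and the median log (to base 2) fold-change was 0.02.

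The sorted marker itself separated the groups. Cd24a, which encodes CD24, had 12.1, 11.5 and 6.99 CPM in the 3 CD24- libraries and 73.3, 85.6 and 72.5 CPM in the 3 CD24+ libraries. The CD24- libraries thus held Cd24a at 13.2% of the CD24+ mean, and the groups did not overlap. In bulk RNA of this kind, fewer cells that carry a transcript and less of it per cell cannot be told apart.

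Of the 10 members, 6 had enough reads to be tested (Selp, Ncam1, Vcam1, Alcam, Mcam and Bcam) and 4 did not (Sele, Selplg, Icam1 and L1cam). Selp lay lower and Ncam1 higher in CD24+ cells, as the choice of members had fixed. The remaining 4 members with enough reads (Vcam1, Alcam, Mcam and Bcam) were all called higher, where 23.9% of all tested genes were. Mcam and Bcam had at most 7 reads in any CD24- library and reached the count filter through the CD24+ libraries, so the count of 4 carries no weight of its own.

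**Figure D1:**
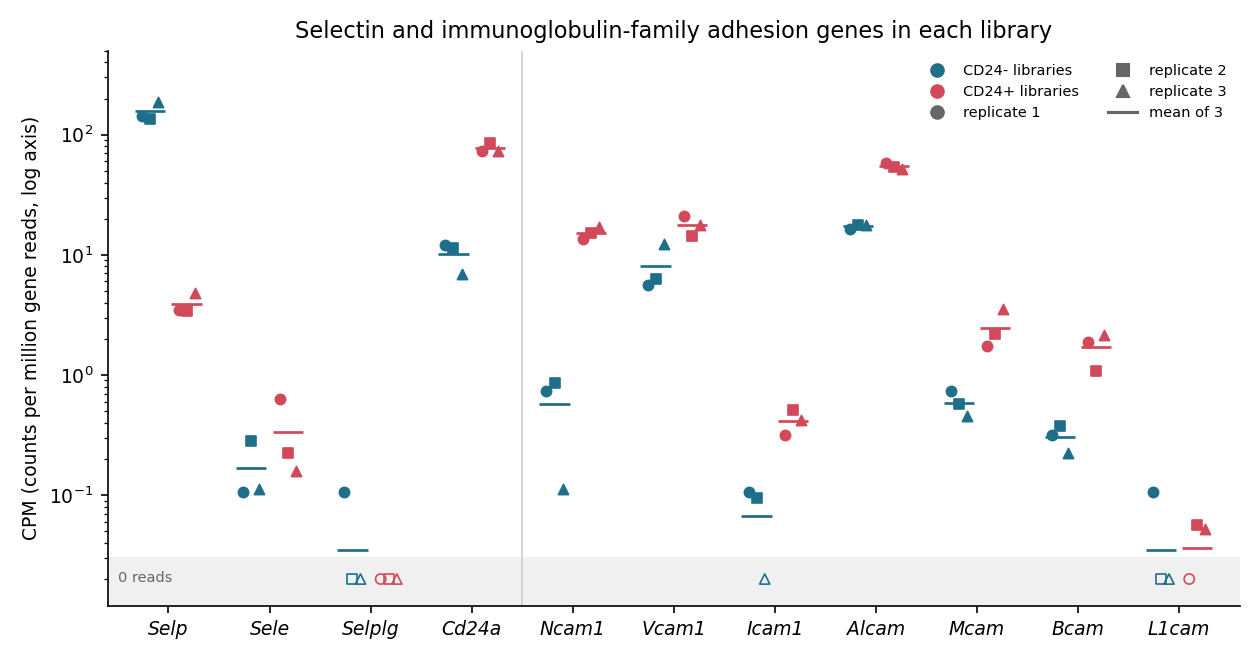
CPM of the 10 adhesion genes and Cd24a in each of the 6 libraries on a logarithmic axis, with replicates as circles, squares and triangles, the mean of 3 libraries as a line and libraries without a read as open symbols in the grey band. Selp lies between 136 and 188 CPM in CD24- cells and between 3.39 and 4.77 CPM in CD24+ cells, and Ncam1, Vcam1, Alcam, Mcam and Bcam lie higher in every CD24+ library than in any CD24- library.

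Selp, the P-selectin gene, was abundant in CD24- cells and much lower, though still clearly detected, in CD24+ cells. It lies on the plus strand of chromosome 1 (GRCm38, chr1:164115264-164150026). A sequence read from its exon 9, which encodes part of the row of short repeats that lifts the lectin domain off the membrane, is shown because it was the most frequent coding read of the gene in CD24- cells, with 8, 4 and 4 copies in their libraries and none in the CD24+ libraries (chr1:164137240-164137286, plus strand).
Selp exon 9: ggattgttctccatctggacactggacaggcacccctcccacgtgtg

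Selp had 1369, 1435 and 1668 reads in the CD24- libraries (144, 136 and 188 CPM) and 22, 60 and 91 reads in the CD24+ libraries (3.46, 3.39 and 4.77 CPM). Every CD24- library was far above every CD24+ library. The means were 156 ± 28.0 CPM and 3.87 ± 0.776 CPM (SD, n = 3 each), so that CD24+ cells held 2.48% of the CD24- level and the log2 fold-change was -5.29 (standard error 0.18). Per length, Selp was the most abundant member in CD24- cells, at 59.5 ± 10.3 CPM per 1000 read positions of its main transcript, and had 1.44 ± 0.291 on this scale in CD24+ cells.

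The fall ran along the whole Selp transcript. Its first 8 exons held 40.2% of the CD24- reads on the transcript (1845 of 4586) and 34.3% of the CD24+ reads (60 of 175). The large exon 3, which encodes the lectin domain, had 194, 242 and 283 reads in the CD24- libraries and 2, 4 and 15 in the CD24+ libraries. The last exon had 485, 506 and 608 against 6, 31 and 33 reads. A test of unequal exon use across all genes did not call Selp (edgeR, adjusted p = 1.0 from the F test over its exons). The gene overlaps antisense and long noncoding transcripts (Gm16587 and Gm16548), and 921 of 4536 reads annotated to Selp inside its transcripts also match another reference gene, which unstranded counts cannot separate.

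Sele, the gene of E-selectin, which cytokine-activated endothelium makes, lies beside Selp and was close to absent. It had 1, 3 and 1 reads in the CD24- libraries and 4, 4 and 3 in the CD24+ libraries, or at most 0.630 CPM, and the groups overlapped. Selplg, which encodes the main leukocyte ligand of P-selectin, had a single read in CD24- replicate 1 and none in the other 5 libraries. A count of 0 allows up to 3 reads, which is 0.157 to 0.472 CPM depending on the library, so lower levels were not detectable at this depth.

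Enzymes that build the sugar epitope of selectin ligands, and the proteins that carry it, were followed as a list of 30 genes. Of 27 with reads, 24 were tested, and 6 were higher, 10 lower and 8 without a call in CD24+ cells, where 23.9% of all tested genes were higher and 22.3% lower. The 6 include Cd24a, the gene of the marker used for sorting, whose call carries no weight here. The median log2 fold-change was 0.09 (0.02 over all tested genes). Enzymes and carriers were found among the called genes of both directions, and the 2 classes were not compared. The 3 lowest genes are described first. Gcnt1, which starts the core branch on which P-selectin ligands are built, went from 18.7 ± 6.35 to 0.690 ± 0.314 CPM (log2 fold-change -4.78, standard error 0.38, edgeR adjusted p = 4.24e-06), and it reached the count filter through the CD24- libraries. The fucosyltransferase gene Fut4 went from 11.3 ± 1.04 to 1.75 ± 0.682 CPM, and the sialyltransferase gene St3gal6 from 23.7 ± 2.18 to 5.97 ± 1.13 CPM (edgeR adjusted p = 1.32e-05 and 4.71e-06). The 3 highest were the carriers Cd34, from 29.3 ± 4.94 to 301 ± 46.1 CPM (edgeR adjusted p = 1.02e-07), and Cd24a, and the sulfotransferase gene Chst2, from 11.2 ± 1.09 to 39.8 ± 4.09 CPM (edgeR adjusted p = 1.70e-06).

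Ncam1, the gene of the neural cell adhesion molecule, was at the edge of detection in CD24- cells and clearly present in CD24+ cells. It lies on the minus strand of chromosome 9 (chr9:49502136-49798925). The most frequent coding read in CD24+ cells comes from exon 14 (chr9:49523554-49523600, minus strand) and is shown for the gene that rose most among the members. It had 0, 2 and 2 copies in the CD24+ libraries and none in the CD24- libraries.
Ncam1 exon 14: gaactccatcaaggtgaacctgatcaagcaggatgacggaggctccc

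Ncam1 had 7, 9 and 1 reads in the CD24- libraries (0.737, 0.853 and 0.113 CPM) and 86, 271 and 325 reads in the CD24+ libraries (13.5, 15.3 and 17.03 CPM). No CD24- library approached the CD24+ values. The means were 0.567 ± 0.398 and 15.3 ± 1.75 CPM (SD, n = 3 each), with a log2 fold-change of 4.70 (standard error 0.32).

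Reads were few in 4 stretches that only some forms of NCAM use, whereas exon 18, taken apart from them, had more. The shared exons 3 to 13 had 25, 90 and 110 reads in the CD24+ libraries, or 193 reads per 1000 positions over the group. The membrane-spanning exons 16 and 17 had 3, 6 and 11 reads (85.8 per 1000 positions) and the last exon of the GPI-anchored form had 1, 3 and 2 (23.2 per 1000 positions). The long cytoplasmic exon of the largest form had 0, 0 and 3 reads (3.97 per 1000 positions), and the last exon of a short form 0, 1 and 2 (4.60 per 1000 positions). Over these 4 form-specific stretches, exons 16 and 17 held 6 of 10 reads in CD24+ replicate 2 (exact 95% interval 26.2% to 87.8%, counting error only) and 11 of 18 in CD24+ replicate 3 (61.1%, 35.7% to 82.7%). CD24+ replicate 1 had fewer than 10 reads there. The stretches differ in length (233, 259, 755 and 652 read positions), and exon 18 is not among them. The long cytoplasmic exon also belongs to a membrane-spanning form. These shares therefore do not measure how much of Ncam1 was membrane-spanning. The CD24- libraries had no read in any of these 4 stretches. Exon 18, the last of the main transcript, lies 3′ of the last exons of the GPI-anchored and short forms. It had 34, 97 and 128 reads in the CD24+ libraries (259 over 3359 read positions) and 2, 3 and 0 in the CD24- libraries.

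Vcam1, the gene of the vascular cell adhesion molecule that leukocyte integrins bind, rose moderately as a whole but unevenly along its length. It lies on the minus strand of chromosome 3 (chr3:116109949-116129688). Vcam1 had 53, 66 and 109 reads in the CD24- libraries (5.58, 6.26 and 12.3 CPM) and 135, 252 and 337 reads in the CD24+ libraries (21.2, 14.2 and 17.7 CPM). CD24- replicate 3 was the highest of its group and still lay below the lowest CD24+ library. The means were 8.04 ± 3.69 and 17.7 ± 3.51 CPM (SD, n = 3 each), and the log2 fold-change was 1.13 (standard error 0.27, edgeR adjusted p = 0.00638).

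The main Vcam1 transcript has 9 exons, and the GPI-anchored form of mouse VCAM-1 uses exons 1 to 4 and then ends in an exon of its own within the next intron. The boundary between exons 4 and 5 is printed here because the 2 groups differed on its 5′ side. The lower-case letters are the last 60 bases of exon 4 (chr3:116124383-116124442, minus strand), the capitals are the first 60 bases of exon 5 (chr3:116121014-116121073, minus strand), and an intron of 3309 bases separates them in the genome (GRCm38).
Vcam1 exon 4 to exon 5: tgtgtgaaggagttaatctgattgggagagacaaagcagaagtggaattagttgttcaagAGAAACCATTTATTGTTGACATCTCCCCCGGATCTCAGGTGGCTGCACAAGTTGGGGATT
The most frequent coding reads of CD24+ cells on the 2 sides follow, the upper from exon 4 (chr3:116124406-116124452), with no copy in the CD24- libraries and 1, 1 and 3 in the CD24+ libraries, and the lower from exon 8 (chr3:116114423-116114469), with 0, 0 and 2 against 2, 3 and 2 copies.
Vcam1 exon 4: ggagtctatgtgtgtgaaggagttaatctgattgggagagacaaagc
Vcam1 exon 8: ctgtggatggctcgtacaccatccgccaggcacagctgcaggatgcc

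Exons 1 to 4, which encode the signal peptide and the outer immunoglobulin domains, had 2, 3 and 3 reads in the CD24- libraries and 35, 52 and 89 in the CD24+ libraries. Exons 5 to 9, which encode the inner domains, the membrane span and the cytoplasmic tail, had 50, 59 and 106 against 97, 192 and 236 reads. The 5′ part was thus nearly empty in CD24- cells although the 3′ part was well covered there. In CPM, exons 1 to 4 went from 0.278 ± 0.0641 to 4.37 ± 1.31, a ratio of 15.7, and exons 5 to 9 from 7.60 ± 3.77 to 12.8 ± 2.25, a ratio of 1.69 (SD, n = 3 each).

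The change came at the boundary of exons 4 and 5. In CD24- cells exon 4 had 0 reads over the 3 libraries and exon 5, of similar length, had 35 (10, 6 and 19). In CD24+ cells the same exons had 53 (6, 18 and 29) and 80 (17, 30 and 33) reads. The share of Vcam1 exon reads that lay in exons 1 to 4 was 3.85%, 4.84% and 2.75% in the CD24- libraries and 26.5%, 21.3% and 27.4% in the CD24+ libraries, with means of 3.81% ± 1.04 and 25.1% ± 3.28 (SD, n = 3 each). The exact 95% intervals of the single libraries reach at most 13.5% in CD24- cells and begin at 16.3% or above in CD24+ cells, and they cover counting error only. With 3 libraries against 3, an exact permutation test cannot give a two-sided p below 0.1, whatever the size of this difference. The last exon of the GPI-anchored form, inside the intron between exons 4 and 5, had 0, 2 and 0 reads in the CD24- libraries and 3, 2 and 12 in the CD24+ libraries.

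Exon use was then compared across the whole table, in 10165 genes with at least 2 measurable exons, a test chosen after the Vcam1 reads had been seen. The F test over the exons of a gene called 87 genes (0.856%), Vcam1 among them (edgeR, adjusted p = 0.0177, 67th of all genes), and the Simes combination of single exons called 47 (0.462%), without Vcam1 (edgeR, adjusted p = 0.214). With each library left out in turn, the F test kept Vcam1 under the threshold without CD24+ replicate 1 or 2 (edgeR, adjusted p = 0.0403 and 0.00463) and not without CD24- replicate 1, 2 or 3 (0.204, 0.149 and 0.0787) or CD24+ replicate 3 (0.532). Among the other members only Selp, Ncam1 and Alcam had enough exon reads for this test, and none of them was called. A Vcam1 antisense transcript, Gm43109, overlaps the gene, and the counts carry no strand.

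**Figure D2:**
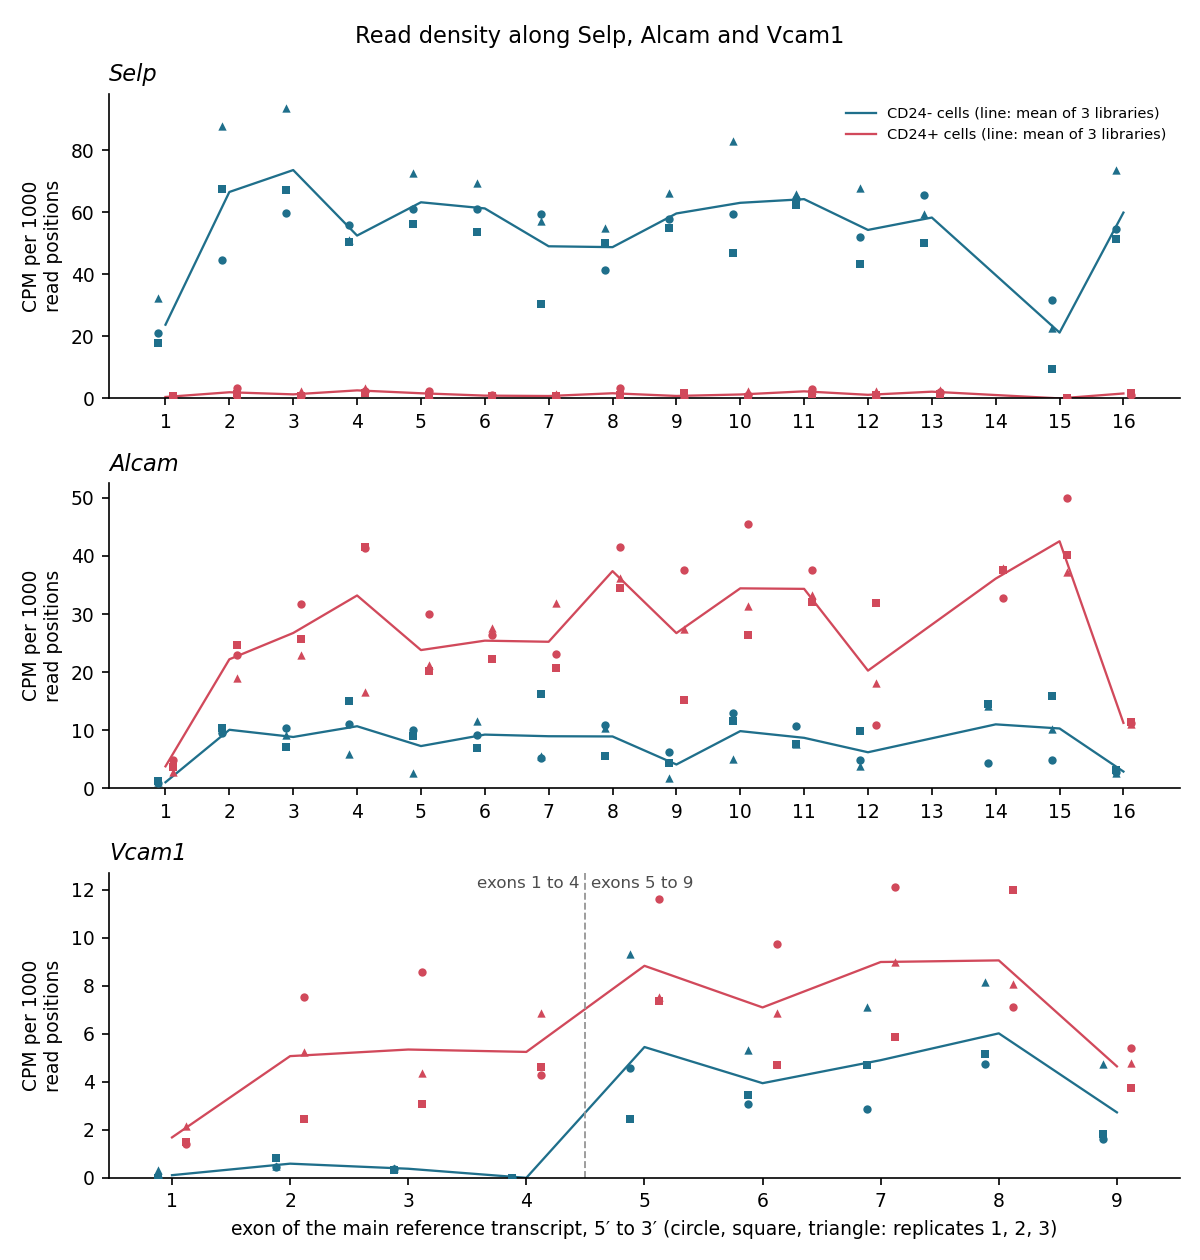
Read density of each exon along the main reference transcripts of Selp, Alcam and Vcam1, as CPM per 1000 positions at which a 47-nt read can start, with replicates as circles, squares and triangles and the mean of 3 libraries as a line. For Selp and Alcam the group means keep their order in every exon with reads, whereas Vcam1 in CD24- cells has 8 reads in exons 1 to 4 and 215 in exons 5 to 9.

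Icam1, the integrin ligand that inflammatory signals raise together with Vcam1 in endothelium, stayed low. It had 1, 1 and 0 reads in the CD24- libraries and 2, 9 and 8 reads in the CD24+ libraries, and the CD24+ values (0.315, 0.508 and 0.419 CPM) lay above the CD24- values (at most 0.105 CPM). The gene did not pass the count filter. Fitted without that filter, its adjusted p was 0.0324 with edgeR and 0.144 with DESeq2, and the groups rested on 2 and 19 reads in all.

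Alcam encodes the activated leukocyte cell adhesion molecule, which binds itself and the leukocyte receptor CD6, and it was the most abundant member in CD24+ cells. It lies on the minus strand of chromosome 16 (chr16:52248996-52454074). A frequent coding read, from exon 10 (chr16:52274175-52274221, minus strand), is shown because it was present in both groups, with 1, 2 and 0 copies in the CD24- libraries and 4, 6 and 4 in the CD24+ libraries.
Alcam exon 10: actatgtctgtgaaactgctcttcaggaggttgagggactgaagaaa

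Alcam had 155, 187 and 158 reads in the CD24- libraries (16.3, 17.7 and 17.8 CPM) and 367, 953 and 996 reads in the CD24+ libraries (57.8, 53.8 and 52.2 CPM). The replicates were tight and the groups lay far apart. The means were 17.3 ± 0.842 and 54.6 ± 2.86 CPM (SD, n = 3 each), and the log2 fold-change was 1.65 (standard error 0.10, edgeR adjusted p = 5.69e-07). Its first 8 exons held 38.0% of the CD24- reads on the transcript and 32.9% of the CD24+ reads.

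Mcam and Bcam, which encode a melanoma-associated adhesion molecule (CD146) and a laminin receptor of the Lutheran blood group, were genes with few reads in either group and lower in the CD24- libraries. Mcam (chr9:44134469-44142727) had 7, 6 and 4 reads against 11, 39 and 67, and its means were 0.585 ± 0.144 and 2.48 ± 0.922 CPM, a log2 fold-change of 2.13 (standard error 0.39, edgeR adjusted p = 0.00126). Bcam (chr7:19756131-19771016) had 3, 4 and 2 reads against 12, 19 and 41, and its means were 0.307 ± 0.0772 and 1.70 ± 0.561 CPM, a log2 fold-change of 2.39 (standard error 0.46, edgeR adjusted p = 0.00196). For either gene the lowest CD24+ library lay above the highest CD24- library. Both genes reached the count filter through the libraries in which they are high, so these p-values carry little weight. L1cam, which is best known from growing axons, had 1 read in the CD24- libraries and 2 in the CD24+ libraries.

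Placed on a common scale per length (CPM per 1000 read positions of the main transcript), the order of the members differed between the groups. In CD24- cells Selp (59.5 ± 10.3) came first, followed by Alcam (3.46 ± 0.285) and Vcam1 (2.58 ± 1.25), whose values overlapped, and the other members were at or below 0.183. In CD24+ cells Alcam came first (12.6 ± 0.826), followed by Vcam1 (5.63 ± 1.15), Ncam1 (2.46 ± 0.345), Selp (1.44 ± 0.291), Mcam (1.03 ± 0.362) and Bcam (0.897 ± 0.327). The values of Mcam overlapped with those of Selp and of Bcam, every Selp value lay above every Bcam value, and Alcam, Vcam1 and Ncam1 were each separate from their neighbours in the order.

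The binding partners and modifiers of these molecules were followed as a list of 30 genes, of which 22 of 28 with reads were tested. Of these, 8 were higher, 7 lower and 7 without a call in CD24+ cells (23.9% of all tested genes were higher and 22.3% lower), with a median log2 fold-change of 0.01. Among the NCAM partners, Fgfr2, a growth factor receptor that NCAM can engage, went from 0.936 ± 0.104 to 13.8 ± 1.31 CPM (edgeR adjusted p = 3.32e-07), and it reached the count filter through the CD24+ libraries. Gdnf, whose product NCAM can bind as a coreceptor, went from 2.67 ± 0.256 to 15.8 ± 0.724 CPM (edgeR adjusted p = 9.41e-07). Gfra1, the GDNF coreceptor, had 1, 0 and 0 reads in the CD24- libraries and 16, 39 and 72 in the CD24+ libraries. Among the integrin partners, Itgb7 went from 275 ± 11.9 to 105 ± 20.9 CPM and Itgb3 from 6.82 ± 2.60 to 3.24 ± 0.696 CPM (edgeR adjusted p = 1.22e-05 and 0.0121). The groups overlapped for Itgb3, and its call was lost without CD24- replicate 2 (edgeR, adjusted p = 0.0541). It was also lost with median coverage, recomputed here after the study's description (limma, adjusted p = 0.166). Itga4, the chain with which Itgb7 forms a VCAM-1 receptor, had 1 read in all 6 libraries together. The chains of another VCAM-1 receptor, named here after their values were seen, were called higher, Itga9 from 46.4 ± 8.87 to 64.9 ± 11.9 CPM and Itgb1 from 931 ± 53.7 to 1182 ± 66.9 CPM (edgeR adjusted p = 0.0298 and 0.00718). With each distinct sequence counted once both calls were lost, at log2 fold-changes of -0.14 for Itga9 and 0.05 for Itgb1 (edgeR adjusted p = 0.732 and 0.858). Leaving out CD24- replicate 1, CD24- replicate 2 or CD24+ replicate 1 also ended the call of Itga9 (edgeR adjusted p of up to 0.111). The call of Itgb1 ended without CD24- replicate 1 (edgeR, adjusted p = 0.0532) and with the recomputed median coverage (limma, adjusted p = 0.164). Itgam, a chain of an ICAM-1 receptor, had 36, 47 and 29 reads in the CD24- libraries and 0, 0 and 1 in the CD24+ libraries. Of the called genes in this list, 3 (Fgfr2, Gfra1 and Itgam) averaged below 1 CPM in one group. Each reached the count filter through the other group, so these 3 add no weight to the counts of calls.

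Among other adhesion genes of the immunoglobulin superfamily, calls in the 2 directions were equal in number. Of 42 listed, 37 had reads and 18 were tested, with 6 higher, 6 lower and 6 without a call (23.9% and 22.3% of all tested genes were higher and lower), and a median log2 fold-change of 0.01. The highest were Cxadr, a junctional virus receptor (5.76 ± 1.20 to 40.8 ± 4.37 CPM), the nectin gene Nectin2, listed as Pvrl2 (23.02 ± 4.64 to 158 ± 31.1 CPM), and Amigo2 (22.4 ± 1.90 to 85.2 ± 6.26 CPM). The lowest were Igsf3 (15.4 ± 3.23 to 5.64 ± 0.548 CPM), Igsf8 (95.1 ± 18.8 to 37.8 ± 0.833 CPM) and the nectin-like receptor gene Pvr (131 ± 12.7 to 56.1 ± 12.5 CPM). Each of these 6 genes passed the test (edgeR, adjusted p at most 1.31e-04).

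Signalling and inflammatory genes linked to the activation of endothelium, where Selp, Sele, Vcam1 and Icam1 are regulated, made up a list of 20. The list was not split into genes that promote and genes that restrain activation, so its counts give no direction of activation. Of the 20 genes 19 were tested, with 7 higher, 6 lower and 6 without a call. Over all tested genes 23.9% were higher and 22.3% lower. The median log2 fold-change of the list was 0.11. With each distinct sequence counted once, 6 were called higher and 3 lower. Klf4 (15.97 ± 1.32 to 64.4 ± 10.9 CPM), the NF-κB subunit gene Relb (10.2 ± 0.469 to 30.3 ± 7.28 CPM) and the prostaglandin synthase gene Ptgs2 (145 ± 41.1 to 323 ± 19.8 CPM) rose most. Klf2 (60.1 ± 18.9 to 24.2 ± 6.27 CPM) and the chemokine genes Ccl2 (217 ± 18.6 to 125 ± 58.3 CPM) and Cxcl1 (103 ± 14.2 to 65.2 ± 8.30 CPM) were the lowest. For Ccl2 the call (edgeR, adjusted p = 0.0256) was lost without CD24- replicate 3 or CD24+ replicate 3 (adjusted p = 0.0503 and 0.0860). It was also lost with DESeq2 (adjusted p = 0.0873) and with each distinct sequence counted once, where the log2 fold-change was -0.37 (edgeR, adjusted p = 0.225).

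**Figure D3:**
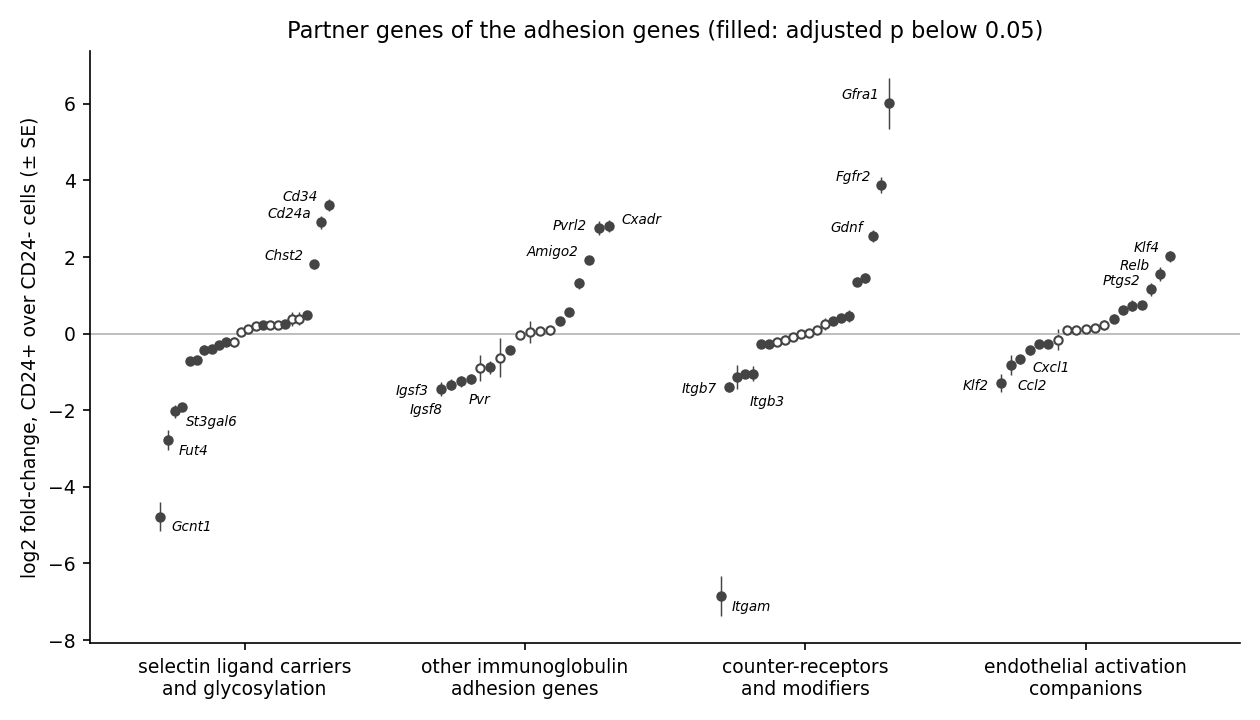
Log2 fold-change (CD24+ over CD24- cells, with its standard error) of every tested gene in the 4 lists of partner genes, sorted within each list, filled where the edgeR adjusted p was below 0.05, with the 3 highest and 3 lowest named. Each list holds genes on both sides of 0, from Itgam (1 read in all CD24+ libraries) to Gfra1 (1 read in all CD24- libraries), whose fitted values depend on the prior count.

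The genes beside Selp on chromosome 1 were mostly lower in CD24+ cells, though far less so than Selp. Of the 11 nearest protein-coding genes other than Sele, 9 were tested and 8 of them were lower, where 22.3% of all tested genes were, with a median log2 fold-change of -0.97. Ccdc181 (listed as 4930455F23Rik, 126 kb away) was the lowest at -1.77, followed by BC055324 (-1.31), Slc19a2 (-1.06), Blzf1 (-1.003), Scyl3 (-0.97), Mettl18 (listed as 2810422O20Rik, -0.57), Kifap3 (-0.47) and Nme7 (-0.33). Atp1b1 was not called (0.26, edgeR adjusted p = 0.349). The closest gene had few reads. F5, the coagulation factor V gene 1.8 kb away, had 2, 3 and 2 reads against 5, 9 and 16. The call of Mettl18 was lost without CD24- replicate 2, CD24+ replicate 2 or CD24+ replicate 3 and with distinct sequences (edgeR adjusted p of up to 0.129). That of Nme7 was lost without CD24- replicate 1, CD24- replicate 2 or CD24+ replicate 3, with distinct sequences and with the replicate number as a block (edgeR adjusted p of up to 0.0907, and 0.0622 with the block).

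Around Ncam1, 6 of 12 neighbouring genes were tested, with 1 higher, 4 lower and 1 without a call. Over all tested genes, 23.9% were higher and 22.3% lower. Ttc12, the gene 15.9 kb away, had 1, 2 and 0 reads in the CD24- libraries and 10, 18 and 24 in the CD24+ libraries (log2 fold-change 3.44, edgeR adjusted p = 9.79e-04). It was the only neighbour called higher, and it reached the count filter through the CD24+ libraries alone. Without CD24+ replicate 3, with reads of 1 reference gene or with median coverage Ttc12 could not be tested and no neighbour was called higher in CD24+ cells. Leaving out CD24- replicate 2 raised its log2 fold-change to 4.26. Plet1 (listed as 1600029D21Rik, 696 kb away) was lower at -4.69, from 302 ± 117 to 11.7 ± 1.79 CPM (edgeR adjusted p = 1.10e-06). Bco2 (-1.49), Il18 (-0.86) and Zw10 (-0.48) were lower as well, and Pts was not called (-0.24). The call of Il18 was lost with the recomputed median coverage (limma, adjusted p = 0.0970).

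**Figure D4:**
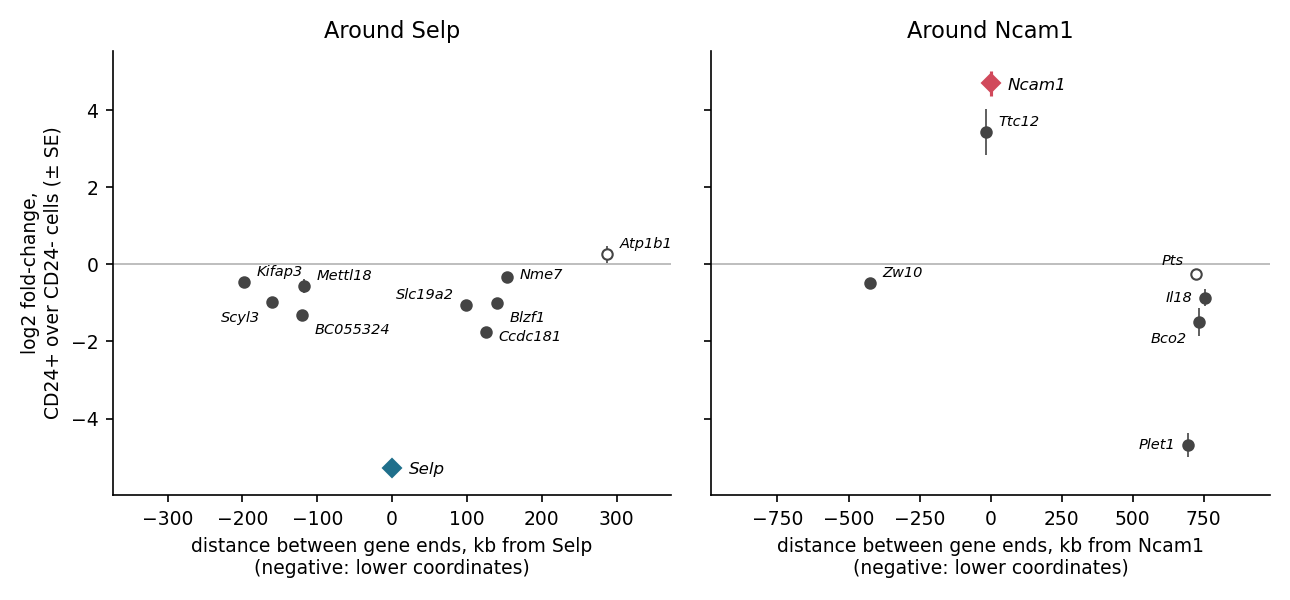
Log2 fold-change (CD24+ over CD24- cells, with its standard error) of the tested genes on either side of Selp (left) and Ncam1 (right) against the distance between gene ends in kb, filled where the edgeR adjusted p was below 0.05. Around Selp (-5.29) 8 of 9 genes lie below 0, between -0.33 and -1.77, and around Ncam1 (4.70) only Ttc12 lies above 0.

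Over the 6 libraries, the tested genes whose profiles lay closest to that of Selp were Cysltr1, Rps6ka6 and Dsg2, with Euclidean distances of 0.751, 0.839 and 0.989 between centred log2 CPM values. Cysltr1, a leukotriene receptor gene, had 6.84, 6.35 and 5.07 CPM in the CD24- libraries and no read in the CD24+ libraries. The desmosomal cadherin gene Dsg2 went from 33.0 ± 7.17 to 0.809 ± 0.167 CPM, and the kinase gene Rps6ka6 from 8.75 ± 0.741 to 0.108 ± 0.105 CPM. Closest to Ncam1 were Dpysl3 (0.874), Fam43a (0.897) and Pdgfrl (1.03). Dpysl3, known from growing axons, went from 0.197 ± 0.190 to 7.90 ± 2.51 CPM, Fam43a from 0.679 ± 0.419 to 12.4 ± 1.93 CPM and Pdgfrl from 0.0667 ± 0.0580 to 4.85 ± 0.884 CPM. These likenesses describe libraries that were already split by group.

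Selp, Sele, Vcam1 and Icam1 are best known from endothelium, leukocytes and platelets, so markers of those cells were read in the same libraries, beside a background over all tested genes of 23.9% called higher and 22.3% called lower. The 10 endothelial markers summed to 128 to 181 CPM in CD24- libraries and 85.6 to 99.2 CPM in CD24+ libraries, with 3 of 4 tested markers lower, Cdh5 among them, and most of the sum in Flt1 (145 and 84.3 CPM on average). Pecam1 (0.137 and 0.161 CPM), Kdr (0.0632 and 0 CPM), Tie1 (0.0316 and 0 CPM) and Vwf (0.582 and 0.182 CPM) were at or near 0, and Cdh5 had 1.85 and 0.247 CPM. The 11 leukocyte and platelet markers summed to 50.2 to 85.3 CPM against 10.4 to 11.3 CPM, with 2 of 3 tested markers (Cd68 and Itgam) lower and most of the sum in Cd68 (64.6 and 8.15 CPM). Ptprc (0 and 0.0349 CPM), Csf1r, Lyz2, Pf4 and Gp1ba were at or near 0. The neural and Schwann cell markers summed to 110 to 135 CPM against 60.5 to 61.4 CPM, nearly all of it Mbp (120 and 57.8 CPM), and of 2 tested markers 1 was lower. Of 8 tested mesenchymal markers 7 were higher, and Vim, without a call, dominated the sum of 3648 to 4519 against 4307 to 5156 CPM (3886 and 4377 CPM on average). Of the called markers, Cdh5 and Itgam reached the count filter through the CD24- libraries and Acta2, Col1a1 and Col1a2 through the CD24+ libraries, so the counts of called markers carry no weight of their own. The other mesenchymal markers called higher averaged above 1 CPM in both groups. They were Prrx1 (4.67 and 89.2 CPM), Pdgfrb (4.82 and 66.7 CPM), Twist1 (47.1 and 85.6 CPM) and Pdgfra (6.24 and 11.2 CPM, groups overlapping). The part of any of these markers in the changes of the adhesion genes was not tested.

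The labels describe the cells as mammary epithelial. Krt8 (1230 and 596 CPM on average) and Krt18 (733 and 213 CPM) were expressed in both groups and lower in CD24+ cells, as was Krt19 (12.1 and 3.22 CPM), while Esr1 was higher (8.48 and 20.1 CPM). Epcam (0.101 and 0.0565 CPM), Cdh1 (0 and 0.0363 CPM), Krt5, Krt14 and Krt7 were at or near 0 in both groups. The 10 epithelial markers summed to 1858 to 2050 CPM in CD24- libraries and 778 to 922 CPM in CD24+ libraries.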

How the data were processed

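RNA-seq libraries were made from 3 plates of CD24- and 3 plates of CD24+ Mvt1 cells. The authors cut every read to 47 nt, merged identical reads while keeping their number, placed them on the genome where they matched exactly (mm9 per the submitters' processing notes) and attached 1 annotation to each. The deposited counts are raw read counts per distinct sequence, not normalized and not pooled. Neither the aligner nor the annotation's origin is named (not given in the sources used here). Exact matching leaves out reads across exon junctions and over variants of FVB/N. The libraries were not stranded.

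The deposited counts were summed per gene symbol. Of 16024 annotations, 14729 were taken to name a gene, of which 12642 are current mouse gene symbols and 1790 are synonyms given by RefSeq. The rest matched neither and were counted as genes because their names hold no full stop. Reads annotated to nothing (16.9% to 20.2%) or to repeats and small RNA (8.06% to 10.6%) stayed out of totals. Genes passing filterByExpr were tested with edgeR 4.0.16 (TMM, quasi-likelihood F test, Benjamini-Hochberg over 11113 genes, threshold 0.05) in R 4.3.3, with standard errors taken as the log2 fold-change divided by the root of F. A gene that averaged below 1 CPM in one group could pass this filter through the other group alone. Some, such as Tek, passed through libraries of both groups. Selp and Ncam1 were part of this fit, but their p-values were not used, because they were chosen for their change. Exon reads, isoforms and printed sequences come from exact matches of the deposited reads to GENCODE M21 transcripts (GRCm38), with 1 main transcript per gene, whatever their annotation. Exon use was tested with edgeR's diffSpliceDGE on reads of 1 reference gene. No GRCm38 position was converted to mm9.

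The members and gene lists were chosen with earlier results of these data known. Named genes are the members, Cd24a, the 3 highest and 3 lowest tested genes of each list, the tested neighbours (6 on each side) and the 3 genes nearest to Selp or Ncam1 in profile, with F5, Itga9 and Itgb1 named after their values were seen. Alternatives were DESeq2 1.42.0, other scaling and filters, distinct sequences and reads of 1 reference gene. A replicate block, leaving out each library and median coverage tested with limma 3.58.1 were also used. That coverage followed the study's description (quantile normalization, regularizer of 10). It was recomputed here from reads of 1 reference gene on 1 main transcript per gene, so its values are not the study's. Replicates differed by more than sampling noise. The chi-square per degree of freedom was 1.71 between CD24- replicates 1 and 2 and 9.34 to 15.3 between all other pairs within a group. CD24- replicates 1 and 2 were thus closer to each other than to CD24- replicate 3. Both edgeR tests were tested on simulated data. Intervals cover counting error only.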

Additional observations from a re-analysis of the deposited data

Results flagged for a closer look

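Reads of Alcam without an annotation were the only signal outside the gene totals that met the criterion, a level above the CD24- libraries in every CD24+ library. Such reads match a reference transcript of Alcam exactly but carry no annotation in the deposited files, and there were 824 of them. Their level was 3.37, 4.36 and 2.71 CPM in the CD24- libraries and 17.5, 16.7 and 16.5 CPM in the CD24+ libraries, with means of 3.48 ± 0.833 and 16.9 ± 0.505 CPM (SD, n = 3 each). They were not tested, and they moved in the same direction as the annotated Alcam reads (17.3 and 54.6 CPM). Selp had 308 such reads, at 10.4 ± 1.92 CPM over the CD24- libraries and 0.199 ± 0.173 CPM over the CD24+ libraries. The groups did not overlap for these Selp reads either, in the direction that the criterion left out. Over all tested genes the groups did not overlap for 57.3%, so such a separation was common. No group had 4 or more samples, so outliers within a group were not sought.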

How the results depend on the processing

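For Vcam1, Alcam, Mcam and Bcam, none of 53 alternative values changed sign or crossed the threshold, where Mcam and Bcam had passed the count filter through the libraries in which they are high. Settings in which a member could not be tested are not among the 53, and Bcam could not be tested with reads of 1 reference gene. The filter of at least 1 CPM in 3 libraries kept the same 11113 genes as the main fit. Its values, counted among the alternatives here, therefore could not differ and are no separate check. Of 106 alternative counts of called genes and shares of Vcam1 reads, the counts of exon use apart, 103 stayed within the limits set (1.5-fold for a count, 1 SD for a share). The exceptions came with the recomputed median coverage tested with limma. It changed the reads used, the transcript set, the read summary, the normalization, the regularizer and the test at once. With it 3158 genes were called in place of 5130, 2 of 2 testable members in place of 4 of 4 (Ncam1, Mcam and Bcam could not be tested), and 9 selectin ligand genes in place of 16, and the log2 fold-change was -1.71 for Selp, 0.42 for Alcam and 0.26 for Vcam1. Without a filter on low counts Icam1 was called as well (5 of 8). When single libraries were left out, 4068 to 5350 genes, 4 to 4 of the tested members, 11 to 15 selectin ligand genes, 12 to 13 other immunoglobulin-family genes, 11 to 15 partners, 10 to 13 endothelial companions and 10 to 13 neighbours were called, and the share of Vcam1 reads in exons 1 to 4 was 3.30% to 4.34% in CD24- cells and 23.9% to 26.9% in CD24+ cells. Over the same libraries the exon-use F test called 45 to 72 genes in place of 87 and the Simes combination 22 to 35 in place of 47, beyond 1.5-fold without CD24- replicate 1, CD24- replicate 2 or CD24+ replicate 3 for both (53, 45 and 45 genes, and 23, 22 and 22) and without CD24+ replicate 1 or 2 for the Simes combination (29 and 31), and Vcam1 lost its call in 4 of the 6 cases. Of 631 alternative values of the other named genes, 22 lost their call, in Itgb3, Ccl2, Mettl18, Nme7, Il18, Itga9 and Itgb1, and 1 value of a called gene reversed, Itga9 with distinct sequences (log2 fold-change -0.14, edgeR adjusted p = 0.732). Pts, which was not called, also changed sign, with log2 fold-changes from -0.32 to 0.11 over the alternatives. The 2653 genes called higher and 2477 called lower became 2145 and 1549 with distinct sequences and 2523 and 2637 without TMM. The replicate numbers come from the titles, while the count columns of the CD24+ files carry the numbers 4 to 6, and they did not pair the samples (correlations of deviations 0.0143, -0.251 and -0.31). The fit with the replicate number as a block called 4485 genes, changed no call of Vcam1, Alcam, Mcam or Bcam and ended that of Nme7 (edgeR, adjusted p = 0.0622). The causes were not tested. Sele, Selplg, Icam1 and L1cam had at most 19 reads in a group, which limits what can be said of them.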
